A study of Mus musculus with 4 samples.

Results

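The tight, gap and adherens junction genes followed here are 33 genes taken by symbol: 17 claudins, the occludin family, the junctional adhesion molecules, their cytoplasmic adaptors, connexin 43, classical cadherins, Epcam and espin. All 33 were measured, among 19938 genes, each through the probe set that carried its symbol alone and had the highest mean over the arrays. The samples were testes of male mice, 2 labelled Lhcgr KO and 2 labelled control WT. Every mouse, controls included, had received busulfan at 44 mg/kg, an alkylating drug that removes germ cells, and was killed 4 weeks later. Lhcgr encodes the luteinizing hormone receptor of Leydig cells, and its loss deprives the testis of most of its own testosterone. The sources used here do not give strain, age, the kind of Lhcgr allele or whether replicates are separate animals. The p-values therefore reflect only how these 4 samples vary, and that variation may be technical.

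Sertoli cells, the somatic cells of the seminiferous tubule, join each other by tight junctions that form the blood-testis barrier. Claudins and occludin span the membrane and seal the space between cells, adaptors such as the ZO proteins and cingulin tie them to actin, cadherins hold neighbouring cells together, and connexins form channels between them. Androgen acting on Sertoli cells is known to support this barrier, with Cldn3 a known androgen-responsive member in the mouse. Other claudins, Cdh1 and Epcam are known from duct and gland epithelia, and Cldn5 from endothelium.

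The comparison asked which of these genes differ when the germ cell-depleted testis lacks the receptor, and 2 of them passed the test. Cxadr rose 2.38-fold (95% confidence interval 1.77 to 3.21) and Epcam fell 4.17-fold (2.16 to 8.03), and the other 31 genes did not pass the test (limma, Benjamini-Hochberg adjusted p under 0.05 over all 19938 genes). That is 1 of 33 higher and 1 of 33 lower, or 3.03% each way, where 0.963% of all genes were called higher and 2.14% lower. The median log2 fold change, knockout over wild type, was 0.03 over the 33 genes and 0.07 over all genes. Both knockout arrays lay below both controls for 8 genes (24.2%, against 22.4% of all genes) and above both for 10 (30.3%, against 36.8%), and the groups overlapped for 15. At an unadjusted limma p under 0.05 there were 8 of 33 genes (24.2%), against 22.7% of all genes, so these shares lie near the background. Cxadr and Epcam each missed the threshold when either knockout array was left out. With Lhcgr_KO replicate 1 left out the adjusted p was 0.125 for Cxadr and 0.220 for Epcam, and with replicate 2 left out 0.0730 and 0.305. Those fits of 3 arrays take the lone knockout array to vary like the controls. In them, 18 and 23 genes of the whole table were called, against 618 with all arrays.

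**Figure D1:**
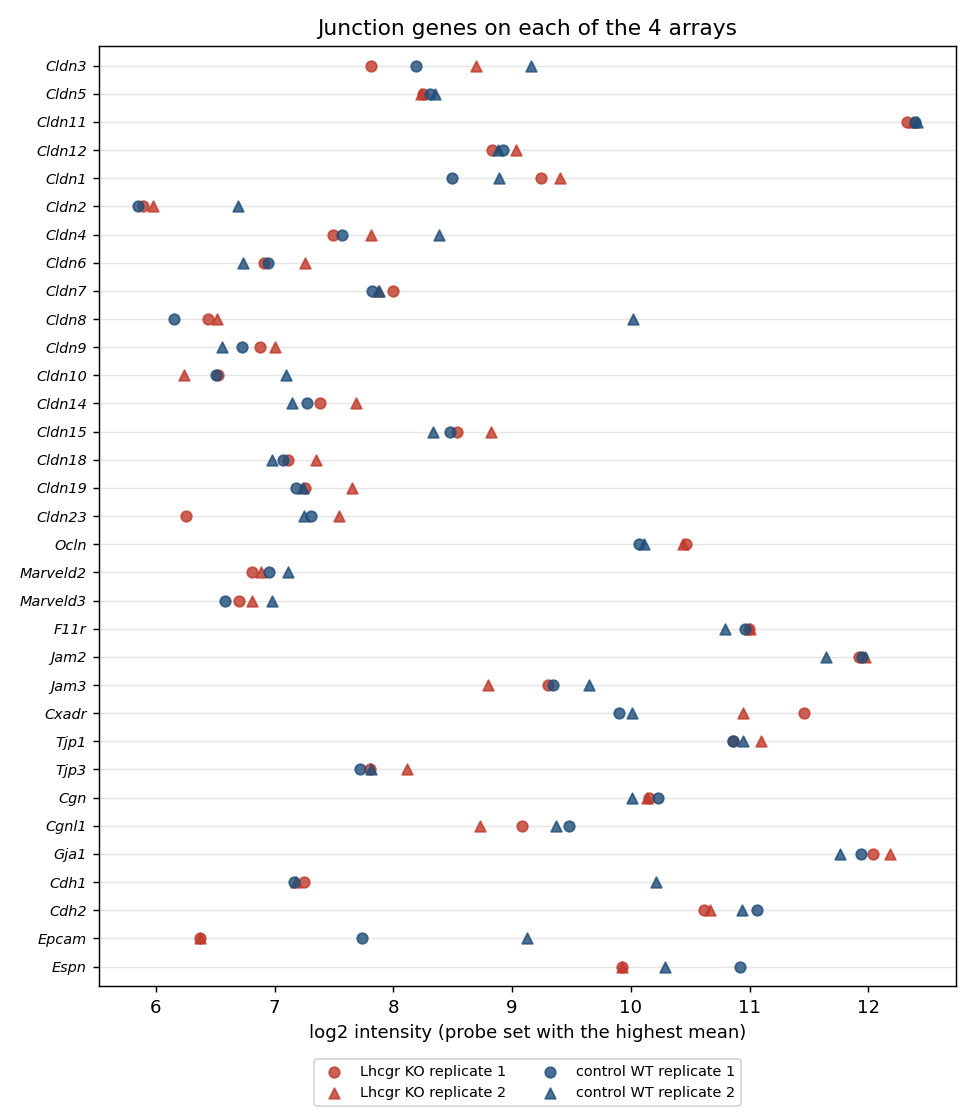
Log2 intensity (x axis) of each of the 33 junction genes (y axis) on every array, with knockout arrays in red and control arrays in blue, circles for replicate 1 and triangles for replicate 2. Cldn8 and Cdh1 are high on control WT replicate 2 alone, Cxadr is higher on both knockout arrays, and Cldn11 differs by less than 0.1 between all 4 arrays; levels of different genes are not comparable, since each comes from its own probes.

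A single array stands apart and touches several values. In control WT replicate 2, 8 of 17 markers of simple epithelia and 11 of 33 markers of the epididymis, rete testis and efferent ducts exceeded each of the other 3 arrays by over 1 log2 unit, against 0.617% of all genes. These lists were written with earlier results of these data known, and 2 keratins are in both. The summed intensity of the epithelial list was 3450 and 3455 on the knockout arrays, 3708 on control replicate 1 and 9622 on control replicate 2. The sums of the epididymal list were 10273, 10972, 9847 and 22049 in the same order. Changes without this array are given below for the genes it moved most; such a fit takes the lone control to vary like the knockout pair, so its p-values leave out the spread between the controls. Without it, 2 of the 33 junction genes, Cxadr and Cldn1, were higher and 2, Epcam and Espn, lower, against 0.988% and 2.26% of all genes. As a check of the tissue, the summed intensity of 26 Sertoli markers was 66697 and 68273 in the knockout and 73367 and 68090 in the controls. Of these markers 1, Amh, rose and 3, Trf, Tsx and Eppin, fell. That is 3.85% higher and 11.5% lower, against 0.963% and 2.14% of all genes. The summed intensity of 20 germ cell markers was 3361 and 3169 in the knockout against 3877 and 2778 in the controls. That of 13 Leydig cell markers was 9705 and 7729 against 30168 and 17642, and that of 17 macrophage markers 6064 and 6173 against 10227 and 13072. The part of these Leydig and macrophage shifts in the junction values was not tested. In whole tissue, fewer cells of a type and less RNA per cell cannot be told apart.

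Promoter sequence is shown for 3 genes that differ in pattern: Epcam, which fell, Cldn3, which split within both groups, and Cldn11, which held nearly the same value on all 4 arrays. The RefSeq table (GRCm38.p6) held 37 promoters for 24 of the 33 genes. It held none for Cxadr, which rose, or for Cldn8 and Cdh1, so theirs could not be shown. The 250 bases before the start are printed on the gene's own strand, 5′ to 3′. Capitals mark matches, on either strand, to CAGGTG, an E-box of the kind bound by Snail and Zeb repressors, to the CCAAT box, to the half-site of the androgen receptor and its relatives, AGAACA, and to the GC box, GGGCGG; no printed match overlaps another.
Epcam (chr17:87635729-87635978, + strand): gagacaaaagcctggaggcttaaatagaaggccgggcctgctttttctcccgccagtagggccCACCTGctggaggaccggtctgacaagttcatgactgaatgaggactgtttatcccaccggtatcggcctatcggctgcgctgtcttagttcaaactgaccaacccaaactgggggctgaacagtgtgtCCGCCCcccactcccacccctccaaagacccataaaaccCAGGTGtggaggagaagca
Cldn3 (chr5:134985964-134986213, + strand): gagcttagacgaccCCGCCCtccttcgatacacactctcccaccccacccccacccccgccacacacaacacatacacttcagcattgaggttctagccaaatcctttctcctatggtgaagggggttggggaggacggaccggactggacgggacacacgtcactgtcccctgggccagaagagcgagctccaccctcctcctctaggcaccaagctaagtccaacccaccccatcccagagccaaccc
Cldn11 (chr3:31149670-31149919, + strand): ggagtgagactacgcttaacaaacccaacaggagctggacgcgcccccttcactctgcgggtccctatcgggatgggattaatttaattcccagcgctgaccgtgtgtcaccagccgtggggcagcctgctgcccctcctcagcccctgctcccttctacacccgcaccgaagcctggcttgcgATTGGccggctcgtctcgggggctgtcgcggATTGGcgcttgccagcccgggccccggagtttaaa
Epcam held 2 E-boxes and 1 GC box, Cldn3 a single GC box and Cldn11 a pair of CCAAT boxes. The E-box letters were in 9 of the 37 junction promoters (24.3%) and in 17.2% of all 32851 promoters. AGAACA was in 5 of 37 (13.5%) against 16.1% of all, CCAAT in 13 (35.1%) against 33.8%, and GGGCGG in 23 (62.2%) against 32.7%. None of the 3 printed windows held AGAACA, which says only that these letters are not in this stretch. A match is a description of the letters and was not tested as a binding site.

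Among the claudins, the strand-forming proteins of tight junctions, none of 17 passed the test. The median log2 fold change was 0.03, the range was -1.61 to 0.64, and 2 of 17 (11.8%) had an unadjusted limma p under 0.05, against 22.7% of all genes. Cldn11, the main claudin of Sertoli cells, measured 12.33 and 12.38 log2 intensity units on the knockout arrays and 12.39 and 12.41 on the controls. All 4 arrays lay together, the knockout pair just below the controls, and the log2 fold change of -0.04 ± 0.11 (SE; adjusted p = 0.809) has a 95% confidence interval of 0.81 to 1.16-fold. Cldn5, a claudin of endothelium that Sertoli cells also express, measured 8.25 and 8.23 against 8.30 and 8.35. Its interval was 0.78 to 1.13-fold (log2 fold change -0.09 ± 0.11, adjusted p = 0.619). Cldn12, a widely expressed claudin, had overlapping groups, with 8.83 and 9.03 against 8.93 and 8.88.

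Cldn3 measured 7.81 and 8.70 in the knockout and 8.19 and 9.16 in the controls. The groups overlapped, and the replicates differed by 0.89 in the knockout and 0.97 in the controls, with replicate 2 the higher in both. With replicate number as a block in limma, Cldn3 still did not pass (adjusted p = 0.141). The log2 fold change was -0.43 ± 0.38 (adjusted p = 0.494), with an interval of 0.40 to 1.39-fold, and it was 0.06 without control replicate 2. An interval this wide holds both a fall of over 2-fold and a small rise. Cldn4, an epithelial claudin and the direct neighbour of Cldn3 on chromosome 5, with 0 protein-coding genes between them, measured 7.49 and 7.81 against 7.56 and 8.38. Here too control replicate 2 was the highest array, and the change was -0.32 ± 0.26 with it and 0.09 without it.

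Cldn1, a claudin of epidermis and many epithelia, measured 9.25 and 9.41 in the knockout and 8.49 and 8.89 in the controls, with both knockout arrays above both controls. Its log2 fold change of 0.64 ± 0.16, a ratio of 1.55, missed the threshold (adjusted p = 0.0965 by limma). Without control replicate 2 the change was 0.83, in a fit that leaves out the distance between the controls. Of all 17 claudins, Cldn1 had the largest positive change.

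Cldn8, a claudin of kidney and duct epithelia, measured 6.44 and 6.51 in the knockout, 6.16 on control replicate 1 and 10.02 on control replicate 2. A single array was high, by 3.87 over the other control. The log2 fold change was -1.61 ± 1.07 with all arrays (adjusted p = 0.374), 0.32 ± 0.16 without control replicate 2 (adjusted p = 0.399) and -3.54 without control replicate 1. Cldn2, a pore-forming claudin, and Cldn10, another pore-forming claudin, were also highest on that array. Cldn2 measured 6.69 there and 5.85 to 5.97 elsewhere, and Cldn10 7.09 there and 6.24 to 6.52 elsewhere. Their changes of -0.34 and -0.42 were 0.081 and -0.13 without it. The weaker probe set of Cldn10 had a change of -0.35.

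The other claudins had small differences. Cldn6 and Cldn9, claudins of embryonic epithelia that lie side by side on chromosome 17, had log2 fold changes of 0.24 and 0.30, which were 0.14 and 0.21 without control replicate 2. Cldn9, with a mean of 6.94 against 6.64, and Cldn14, with 7.38 and 7.68 against 7.27 and 7.15, had groups that did not overlap, at adjusted p = 0.217 and 0.232. Cldn15 (0.28), a pore-forming claudin of the gut, Cldn18 (0.21), a claudin of lung and stomach, and Cldn19 (0.24), a claudin of kidney and Schwann cells, likewise lay higher on both knockout arrays. With Cldn1, Cldn9 and Cldn14, this made 6 of 17 claudins (35.3%) above both controls on both knockout arrays, against 36.8% of all genes. Cldn7 had a change of 0.09 and overlapping groups. Cldn23 was low on Lhcgr_KO replicate 1 alone, at 6.25 against 7.25 to 7.54 on the other arrays, and its change of -0.38 was 0.27 without that array.

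Occludin, the first tight junction membrane protein described, was measured at 10.46 and 10.43 in the knockout and 10.07 and 10.11 in the controls. Replicates lay within 0.05 of each other, and both knockout arrays were above both controls. Its log2 fold change of 0.36 ± 0.11, a ratio of 1.28 (1.07 to 1.54), did not pass the test across all genes (adjusted p = 0.139). The gene next to it on chromosome 13, Marveld2, encodes tricellulin, which seals the corners where 3 cells meet. Marveld2 measured 6.81 and 6.89 against 6.96 and 7.12, with both knockout arrays below both controls and a change of -0.19 ± 0.12 (adjusted p = 0.354) that was -0.11 without control replicate 2. Marveld3, the third protein of this family, overlapped between groups, with a change of -0.02 that was 0.17 without control replicate 2.

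The immunoglobulin-type adhesion proteins of the tight junction held the gene that rose. Cxadr, the coxsackievirus and adenovirus receptor, measured 11.46 and 10.95 log2 intensity units on the knockout arrays and 9.90 and 10.01 on the controls. Both knockout arrays were above both controls, and the lower of them by more than the distance between replicates of either group. The means were 11.20 ± 0.36 (SD, n = 2) and 9.95 ± 0.08, and the difference on the log2 scale was 1.25 ± 0.18 (SE, adjusted p = 0.0203 by limma). Without control replicate 2, the array with the epithelial signal, the change was 1.31 (adjusted p = 0.0131), and without control replicate 1 it was 1.20 (adjusted p = 0.0147). Jam2, which lies near Cxadr on chromosome 16 with 6 protein-coding genes between them, measured 11.92 and 11.97 against 11.95 and 11.64. Its change was 0.15 ± 0.14 (adjusted p = 0.513), with an interval of 0.88 to 1.39-fold, and -0.0042 without control replicate 2. F11r, which encodes JAM-A, measured 10.996 and 11.001 in the knockout against 10.96 and 10.79, a change of 0.12 ± 0.12 that was 0.036 without control replicate 2. Jam3, a partner of JAM-B known to act in germ cell and Sertoli cell adhesion, measured 9.30 and 8.80 against 9.34 and 9.65, a change of -0.45 ± 0.19 (adjusted p = 0.231) that was -0.29 without control replicate 2. Within this family, then, Cxadr passed the test and the 3 JAM genes did not; the difference between Cxadr and the others was not tested.

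The cytoplasmic adaptors carry the junction proteins to actin, and none of the 4 passed; Cgnl1 had an unadjusted limma p under 0.05. Tjp1, which encodes ZO-1, measured 10.86 and 11.10 in the knockout and 10.86 and 10.94 in the controls. The groups overlapped, with a change of 0.073, 0.11 without control replicate 2, and an interval of 0.85 to 1.30-fold. Tjp3, which encodes ZO-3, had a change of 0.19 ± 0.14. Cgn, cingulin, measured 10.15 and 10.13 against 10.23 and 10.01, a change of 0.03 that was -0.04 when each array was centred on its median and -0.084 without control replicate 2. Its paralog Cgnl1, paracingulin, measured 9.08 and 8.73 against 9.48 and 9.37, with both knockout arrays below both controls. The log2 fold change of Cgnl1 was -0.52 ± 0.15, 1.44-fold lower (1.12 to 1.84), at adjusted p = 0.122, and it was -0.58 without control replicate 2.

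**Figure D2:**
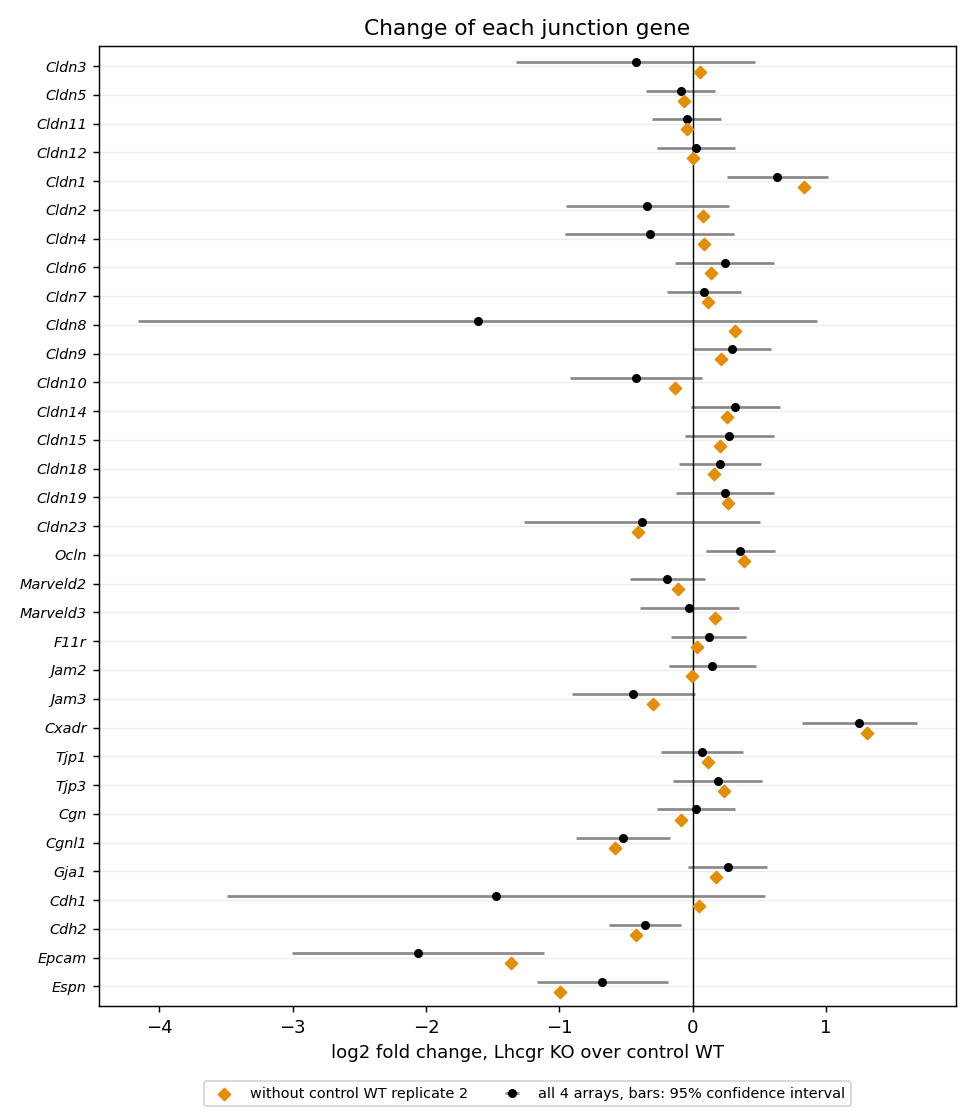
Log2 fold change, knockout over wild type (x axis), of each junction gene (y axis), as black points with 95% confidence intervals from limma on all 4 arrays and orange diamonds without control WT replicate 2. Cxadr (1.25 and 1.31) and Epcam (-2.06 and -1.36) stay away from 0 in both, while Cldn8 and Cdh1 move from -1.61 and -1.48 to 0.32 and 0.05.

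Gja1 encodes connexin 43, the gap junction protein through which Sertoli cells exchange small molecules with each other and with germ cells. It measured 12.04 and 12.19 in the knockout and 11.94 and 11.76 in the controls. Both knockout arrays were above both controls, but by less than the distance between replicates, with a change of 0.26 ± 0.13 (adjusted p = 0.258) an interval of 0.98 to 1.48-fold and a change of 0.17 without control replicate 2.

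The cadherins, which join the membranes of neighbouring cells, differed in where they were high. Cdh2, N-cadherin, the cadherin of Sertoli and germ cells, measured 10.62 and 10.66 in the knockout and 11.06 and 10.93 in the controls. Both knockout arrays were lower, with a change of -0.36 ± 0.11, a ratio of 1.28 (1.06 to 1.55) in favour of the controls, and adjusted p = 0.151. Cdh1, E-cadherin, measured 7.25 and 7.18 in the knockout, 7.16 on control replicate 1 and 10.21 on control replicate 2. As for Cldn8, the difference between groups came from a single array: -1.48 ± 0.84 with it (adjusted p = 0.321), 0.05 ± 0.16 without it (adjusted p = 0.903) and -3.002 without the other control. In all, Cldn8, Cdh1 and Epcam were more than 1 log2 unit above the other 3 arrays on control replicate 2, which is 3 of 33 genes or 9.09%, against 0.617% of all genes.

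Epcam, an epithelial adhesion molecule also known from spermatogonia, differed from Cldn8 and Cdh1 on the other control array. It measured 6.37 on both knockout arrays, 7.73 on control replicate 1 and 9.12 on control replicate 2. Both controls were above both knockouts, and they differed from each other by 1.39. The means were 6.37 ± 0.0015 (SD, n = 2) and 8.43 ± 0.98, and the difference on the log2 scale was -2.06 ± 0.40 (SE, adjusted p = 0.0484 by limma). Without control replicate 2 the change was -1.36, 2.57-fold lower, and without control replicate 1 it was -2.75. The fit without control replicate 2 takes its spread from the knockout pair and from a variance shared over all genes. It leaves out the distance between the controls, so it does not test whether the call holds. Of the 17 simple epithelium markers, 4 (23.5%, against 22.4% of all genes) likewise had both controls above both knockouts: Esrp2, Spint2, Cd24a and Ehf. Esrp2, an epithelial splicing regulator, fell, from 7.47 and 7.63 to 6.95 and 6.70 (adjusted p = 0.0450). On control replicate 1 Cd24a and Ehf measured 9.64 and 7.38, against 8.86 to 9.09 and 7.13 to 7.25 in the knockout. The keratins Krt8 and Krt18, named after their values were seen, measured 7.49 and 7.49 there, against 7.45 to 7.77 in the knockout. Over all 17 markers, the median log2 intensity was 6.91 on control replicate 1 and 6.97 and 7.16 on the knockout arrays. The list's median log2 fold change without control replicate 2 was 0.12. The call with all arrays lies close to the threshold, with adjusted p = 0.209 under a robust prior, and the part of the epithelial signal in the size of the change was not tested.

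**Figure D3:**
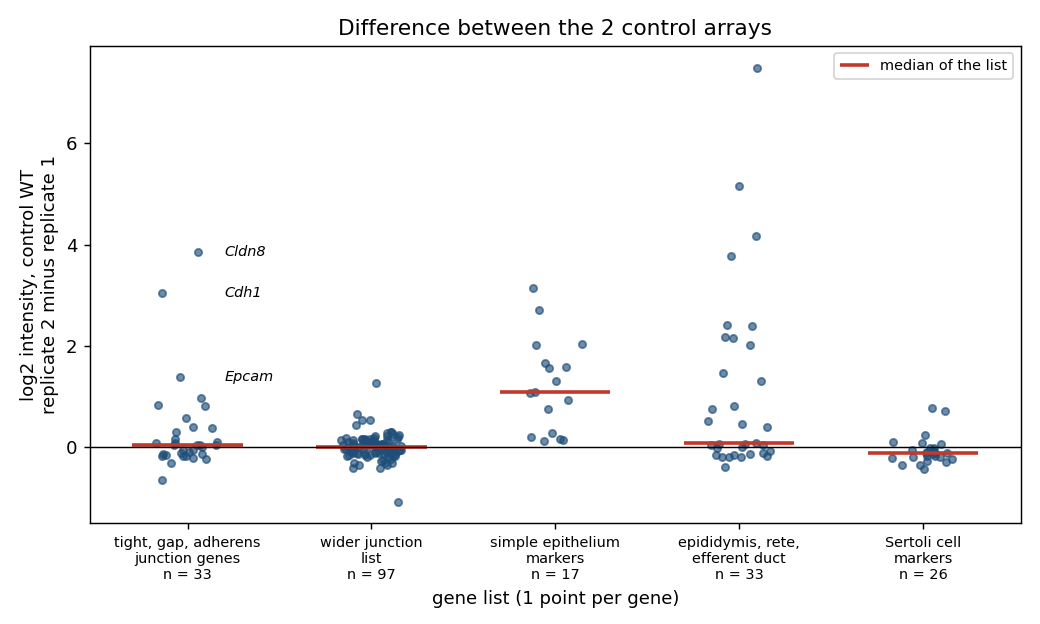
Difference in log2 intensity between the control arrays, replicate 2 minus replicate 1 (y axis), for each gene of 5 lists (x axis), with a red bar at each list's median. The junction genes centre near 0 (median 0.05) with Cldn8, Cdh1 and Epcam at 3.87, 3.05 and 1.39, while the median of the simple epithelium list is 1.10.

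Espn encodes espin, an actin-bundling protein of the ectoplasmic specialization, the adhesion structure that Sertoli cells build against spermatids and against each other. It measured 9.92 and 9.93 in the knockout, 10.92 on control replicate 1 and 10.28 on control replicate 2. Both knockout arrays were below both controls, which themselves differed by 0.64. The log2 fold change of -0.68 ± 0.21, 1.60-fold lower (1.14 to 2.25), did not pass with all arrays (adjusted p = 0.139). It was -0.36 without control replicate 1 and -0.996 without control replicate 2. The latter fit takes its spread from the knockout pair and from a variance shared over all genes, and leaves out the distance between the controls. Unlike Epcam, Espn was thus higher on control replicate 1 than on control replicate 2.

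A wider list of 106 other junction genes, from catenins and nectins to polarity proteins, connexins, desmosomal genes and actin linkers, had 97 measured, of which 1 rose and 3 fell. That is 1.03% and 3.09%, against 0.963% and 2.14% of all genes, and the median log2 fold change of 0.07 was that of all genes too. Ezr, ezrin, which links membrane proteins to actin, measured 7.70 and 7.93 in the knockout and 9.25 and 9.39 in the controls. The groups were far apart, and Ezr was 2.84-fold lower (2.28 to 3.53; log2 fold change -1.50 ± 0.13, adjusted p = 0.00475). Gja6, a connexin gene of the X chromosome, fell as well, from 9.14 and 9.24 to 6.97 and 7.95 (-1.73 ± 0.29, adjusted p = 0.0323). Shroom2, an actin-binding protein of cell junctions, fell less, from 7.42 and 7.59 to 6.86 and 6.92 (-0.62 ± 0.12, adjusted p = 0.0479). Ctnna2, an alpha-catenin best known from neurons, rose from 9.91 and 9.57 to 10.59 and 10.70 (0.90 ± 0.15, adjusted p = 0.0294). Without control replicate 2 the count was 2 higher and 2 lower, and Shroom2 no longer passed (adjusted p = 0.135). Without Lhcgr_KO replicate 1 none of the 4 passed, with adjusted p = 0.0847 for Ezr and Gja6, 0.181 for Ctnna2 and 0.204 for Shroom2. Without Lhcgr_KO replicate 2, Gja6 alone passed, with adjusted p = 0.0724 for Ezr and 0.240 for Ctnna2 and Shroom2. Dsp, desmoplakin of desmosomes, was the only gene of this list to exceed the other 3 arrays by over 1 log2 unit on control replicate 2, at 8.16 against 6.89 to 7.07. The largest positive change of the list was that of Gjc3, a connexin gene, at 1.68 ± 0.35, which did not pass with all arrays (adjusted p = 0.0645 by limma).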

How the data were processed

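Total RNA of 4 testis samples (2 Lhcgr KO, 2 control WT) was labelled with biotin and read on 1-colour Affymetrix whole-transcript arrays, per the labels' protocols. The deposited table gives 1 linear intensity per probe set and array, with a minimum just over 16 and array medians of 198 to 215; if 16 was added, folds of weak genes are understated. The build mm9 is named in the submitters' processing notes; how probes were summarized, background-corrected and normalized is not stated. Of 28856 probe sets, 21789 carried 1 gene symbol, 1621 several and 5446 none; only the first were used. Names were checked by Entrez number (21698 matched).

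Intensities were taken to log2 and fitted with limma 3.58.1 in R 4.3.3 (lmFit, eBayes, no covariates), two-sided, adjusted over all genes by Benjamini-Hochberg. Each gene had 2.0 residual degrees of freedom, and eBayes added a variance prior estimated over all genes, worth 4.65 degrees of freedom. The script was tested on simulated data in which no array stood apart, so that test does not bear on control replicate 2. Members and lists were chosen with earlier results of these data known. Every member is given. Per-array values follow a rule: a named core of junction genes, any member past the threshold, changed by 1 log2 unit or with an array 1 unit apart, and up to 6 called genes each way of the wider list. Values of arrays are also printed outside this rule, for Cldn1, Cldn2, Cldn4, Cldn10, Cldn12, Cldn14, Cldn23, Dsp and some epithelial markers. Alternatives covered scaling, filters, probe sets, priors, each array left out, the replicate block, added constants and an ordinary test. The number of arrays limits the precision. Lhcgr is not analysed here, so the genotype was not checked on it.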

Additional observations from a re-analysis of the deposited data

How the results depend on the processing

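Of 578 values of the 33 junction genes under 18 alternatives, 547 kept direction and side of the threshold, 10 lost the call, 6 gained it and 15 changed sign. Only Cxadr and Epcam had a call to lose, so all 10 losses are theirs. The 547 come mostly from the 31 genes without a call. A changed prior, block or threshold also left each fold change the same by design. The count therefore does not show that the calls of Cxadr and Epcam are stable. The count of genes lower was 0 with the lowest 50% of genes left out, which removes Epcam, with every probe set tested, with a robust prior, with 15 subtracted or 32 added before log2, and under the ordinary pooled-variance test, and 1 under the other alternatives that kept all arrays. The count of genes higher was 2 at an adjusted p under 0.1 and 0 under the ordinary test, which called 0 genes of the whole table, with 2799 at an unadjusted p under 0.05. Over the alternatives the adjusted p ran from 0.00902 to 0.347 for Cxadr, 1.97e-05 to 0.396 for Epcam, 0.0286 to 0.395 for Cldn1 and 0.0102 to 0.445 for Espn. Leaving out each array gave 0 to 4 lower and 0 to 2 higher; the 4 lower, without control replicate 1, were Cldn2, Cldn8, Cdh1 and Epcam. Of the wider list, 1 was lower and 0 higher with 15 subtracted, 0 and 0 under the ordinary test, and 2 higher with arrays centred on their medians, at an adjusted p under 0.1 and with the replicate block; leaving out each array gave 0 to 4 lower and 0 to 3 higher. The cause of these moves was not tested.

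The labels do not say whether the replicate numbers pair the arrays. Deviations of same-numbered arrays correlated at 0.02 over genes, which cannot exclude a pairing that touches some genes. With the replicate block the 33 genes had 1 higher and 1 lower, as without it, and the crossed block gave the same counts. Leaving out each array turned the sign of 11 genes, none of them called with all arrays. Log2 fold changes then ran from -0.76 to 0.081 for Cldn2, -0.91 to 0.057 for Cldn3, -0.73 to 0.088 for Cldn4, -3.54 to 0.32 for Cldn8, -0.074 to 0.13 for Cldn12 and -1.02 to 0.27 for Cldn23. They ran from -0.22 to 0.17 for Marveld3, -0.046 to 0.19 for Tjp1, -0.0042 to 0.30 for Jam2, -0.084 to 0.13 for Cgn and -3.002 to 0.051 for Cdh1. Centring the arrays on their medians turned Cldn12 to -0.038 and Cgn to -0.040. With 2 arrays a group, changes smaller than the printed intervals could not be shown, and folds of genes near the floor of 16 may be compressed.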
